A study of Mus musculus with 16 samples.

Results

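The genes described here have names tied to adrenergic and cyclic nucleotide signalling, read here in brown fat, though some encode other products. They were chosen by name, as the rows of the count table whose symbol marks an adrenergic receptor (Adra or Adrb), an adenylyl cyclase (Adcy), a phosphodiesterase (Pde) or a subunit of protein kinase A (Prkar or Prkac), with pseudogenes left out. There were 50 such genes among the 38924 rows: 9 receptors, 10 cyclases, 25 genes with a Pde name, 4 regulatory and 2 catalytic subunits of protein kinase A. Interscapular brown fat, a heat-producing depot, came from C57BL/6J mice kept for 4 weeks, to 13 weeks of age, at 22 °C or at 30 °C, which is thermoneutral for mice. The groups were mice with a knockout of Akt2 in brown fat made with UCP1-CreER at 22 °C (KO 22 °C), wild-type littermates at 22 °C (WT 22 °C), KO at 30 °C and WT at 30 °C, with 4 libraries each. The Cre recombinase was driven by the Ucp1 promoter, which is active in brown adipocytes, and the RNA came from whole tissue, so other cell types kept the gene and contributed transcripts. Whether the wild-type mice carried the Cre or received the inducing agent is not given in the sources used here.

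Noradrenaline released by sympathetic nerves binds beta receptors on the brown adipocyte, which act through the stimulatory G protein on adenylyl cyclases, the enzymes that make cyclic AMP. Cyclic AMP releases the catalytic from the regulatory subunits of protein kinase A, and the kinase then drives lipolysis and the transcription of thermogenic genes such as Ucp1. Phosphodiesterases end the signal by degrading cyclic AMP or cyclic GMP. PDE3B is a phosphodiesterase through which insulin and AKT are known to restrain lipolysis in adipocytes.

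Library totals ranged from 12751528 to 23866743 counts, of which the 50 genes took 0.343% to 0.473%. Akt2 averaged 82.2 ± 6.03 CPM (counts scaled to the TMM library size) in KO 22 °C, 232 ± 19.8 in WT 22 °C, 69.4 ± 10.7 in KO 30 °C and 204 ± 12.9 in WT 30 °C (SD, n = 4), with no overlap between genotypes. Of the 10 brown adipocyte markers none was at 0, and their summed level was 19545 to 32631 CPM per library at 22 °C and 12592 to 14953 CPM at 30 °C. In 4 libraries over 0.1% of the counts fell on 10 skeletal muscle markers, namely KO 22 °C replicate 1 (0.555%), KO 30 °C replicates 1 (0.102%) and 2 (0.342%) and WT 30 °C replicate 2 (0.225%). Whether every library of a group is a different mouse is not stated in the labels, and the p-values reflect the scatter among libraries, whatever its source. In bulk tissue, fewer cells of a type and less RNA per cell cannot be told apart, which holds for every level below.

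RefSeq promoter windows, 250 bases before to 50 bases after a listed start of a gene on GRCm38.p6, were on hand for 37 of the 50 genes. A gene can have several such starts, and some lie inside the gene. They were searched on both strands for TGACGTCA, the cyclic AMP response element bound by CREB, and for its core TGACG, which the full element contains. The full element stood in 2 of 72 windows of these genes (2.78%), against 1.79% of all 32851 windows. These were overlapping windows of Prkar1a that share 1 element, so 1 of the 37 genes held it. The core stood in 17 of the 72 windows (23.6%), of 15 genes, against 20.8% of all windows. Shown first are the windows of Adcy10, Adcy3 and Pde4d, which with Adrb3 were the members called in all 3 comparisons that called any. They are on the plus strand and hold no match.
Adcy10, chr1:165484933-165485232: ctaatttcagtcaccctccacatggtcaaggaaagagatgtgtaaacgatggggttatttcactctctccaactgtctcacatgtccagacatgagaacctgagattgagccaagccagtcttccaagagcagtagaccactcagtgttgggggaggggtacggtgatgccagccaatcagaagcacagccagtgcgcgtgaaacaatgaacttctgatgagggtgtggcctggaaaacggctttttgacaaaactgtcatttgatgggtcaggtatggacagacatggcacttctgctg
Adcy3, chr12:4133147-4133446: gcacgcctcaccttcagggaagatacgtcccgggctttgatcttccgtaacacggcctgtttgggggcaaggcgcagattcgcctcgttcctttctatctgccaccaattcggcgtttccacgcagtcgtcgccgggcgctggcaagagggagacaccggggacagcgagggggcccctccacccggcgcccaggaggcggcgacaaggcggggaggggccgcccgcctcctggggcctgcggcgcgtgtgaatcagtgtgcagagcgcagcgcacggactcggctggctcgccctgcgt
Pde4d, chr13:108653927-108654226: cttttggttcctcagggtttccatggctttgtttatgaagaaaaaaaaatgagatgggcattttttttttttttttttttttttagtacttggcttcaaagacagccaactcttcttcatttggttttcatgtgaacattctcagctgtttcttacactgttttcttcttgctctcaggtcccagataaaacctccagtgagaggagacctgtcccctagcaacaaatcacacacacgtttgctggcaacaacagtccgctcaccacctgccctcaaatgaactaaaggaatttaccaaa
Shown next, to let the motif be seen, are a window of Pde4a with the core and one of Prkar1a with the full element, both on the plus strand, with every match in capitals. The match in Pde4a begins 50 bases before the start and reads CGTCA, the core on the other strand. In Prkar1a the core begins 100 bases before the start as TGACG, and the full element begins 39 bases after the start.
Pde4a, chr9:21183851-21184150: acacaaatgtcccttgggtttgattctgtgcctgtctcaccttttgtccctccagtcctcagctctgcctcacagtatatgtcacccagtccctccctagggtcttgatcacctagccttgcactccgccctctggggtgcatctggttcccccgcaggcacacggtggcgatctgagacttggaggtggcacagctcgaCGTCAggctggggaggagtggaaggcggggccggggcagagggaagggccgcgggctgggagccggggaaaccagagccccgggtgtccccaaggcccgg
Prkar1a, chr11:109650612-109650911: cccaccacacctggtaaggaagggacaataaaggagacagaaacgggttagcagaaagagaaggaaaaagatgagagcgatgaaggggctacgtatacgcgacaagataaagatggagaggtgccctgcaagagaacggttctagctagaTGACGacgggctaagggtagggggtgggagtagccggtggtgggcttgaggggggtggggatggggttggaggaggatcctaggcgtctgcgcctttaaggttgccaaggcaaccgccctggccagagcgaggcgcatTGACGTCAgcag
Adcy10 and Pde4d have 1 window each on hand, and those of Adcy3 (the first of 2), Pde4a (of 3) and Prkar1a (of 6) are 1 of several. The windows of Adcy3, Pde4d, Pde4a and Prkar1a lie inside the gene as annotated in GENCODE M21. These genes begin there at 4133103, 108449948, 21165714 and 109649405, in that order. The lack of a match in the Pde4d window thus says nothing of the gene's outermost start. A match describes the letters in a window and was not tested as a binding site.

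Of the 50 genes, 42 had enough counts to be tested. The other 8 were Pde11a, Pde6a, Pde6b, Pde6c, Pde6h, Adcy8, Adra1b and Adra2a, with 0 to 76 counts summed over all 16 libraries. Genes were called changed at an adjusted p under 0.05 by edgeR's quasi-likelihood test with Benjamini-Hochberg adjustment over 14103 genes. In KO against WT at 22 °C 13 of the 42 were called, 9 higher and 4 lower, where 17.6% of all tested genes were called (7.52% higher, 10.1% lower). The median log2 fold change was 0.13 over the 42 and 0.02 over all tested genes. In KO against WT at 30 °C none was called, where 0.0425% of all genes were (0.0284% higher, 0.0142% lower). DESeq2 and limma-voom also called none there. At 22 °C against 30 °C 14 were called in KO (12 higher, 2 lower) and 13 in WT (8 higher, 5 lower), where 26.7% of all genes were called in KO (13.8% higher, 13.0% lower) and 38.3% in WT (20.5% higher, 17.8% lower). The median was 0.36 in KO and 0.09 in WT, beside 0.02 and -0.03 over all tested genes. In the interaction, the difference between the KO effects at 22 °C and 30 °C, none was called, where 3.14% of all genes were (0.752% higher, 2.39% lower). DESeq2 called 2 members and limma-voom 3, where they called 7.63% and 7.45% of all genes. The comparisons share groups, so their calls are not independent.

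**Figure D1:**
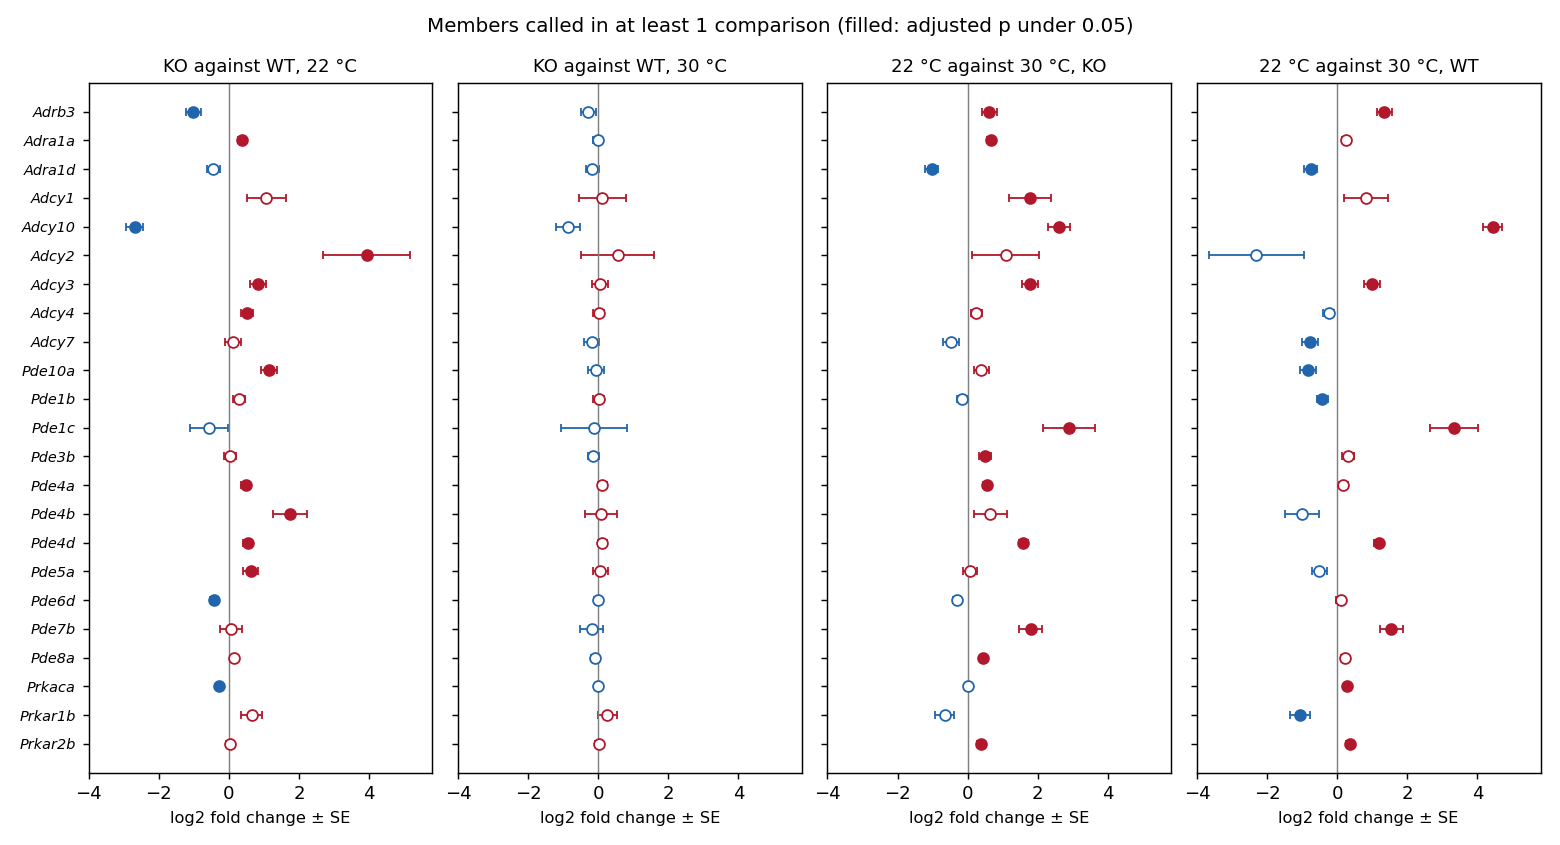
Log2 fold changes (horizontal axis, with standard errors as bars) of 23 members called in at least 1 comparison, in KO against WT at each temperature and in 22 °C against 30 °C in each genotype. Filled points passed an adjusted p of 0.05, red is higher and blue lower. At 30 °C no point of KO against WT is filled, while 13 are filled at 22 °C.

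Among the receptors, the beta3 receptor gene Adrb3 was lower in KO than in WT at 22 °C. This receptor is the main beta receptor of rodent adipocytes. Adrb3 (ENSMUSG00000031489, chromosome 8, 27225776 to 27250616, minus strand, GRCm38) read 296, 160, 241 and 205 CPM in the KO 22 °C libraries and 393, 652, 431 and 334 CPM in the WT 22 °C libraries. At 30 °C it read 128, 166, 123 and 170 CPM in KO and 187, 137, 199 and 188 CPM in WT. Every KO library at 22 °C lay below every WT library, while the genotypes overlapped at 30 °C. The gene fell in KO at 22 °C by 1.01 on the log2 scale (2.01-fold lower, SE 0.213, edgeR adjusted p = 0.00551), and its log2 fold change at 30 °C was -0.28 (adjusted p = 0.998). It rose at 22 °C against 30 °C, by 0.62 in KO (SE 0.212, adjusted p = 0.0412) and by 1.35 in WT (SE 0.215, adjusted p = 0.000182). The interaction was -0.73 (SE 0.299, adjusted p = 0.179). The WT call held in all 27 alternative settings and the KO call in 14, being lost without any 1 of 9 libraries (KO 22 °C replicate 1, 3 or 4, KO 30 °C replicate 1, 3 or 4, and WT 30 °C replicate 1, 3 or 4), with adjusted p from 0.0164 to 0.127 over the left-out libraries. Its exons overlap those of Gm45470 on the other strand over 839 bases, and the strand setting of the counting is not given in the sources used here.

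Adrb1 encodes the beta1 receptor. Adrb1 averaged 26.5 ± 9.11 CPM in KO 22 °C, 23.9 ± 4.42 in WT 22 °C, 20.6 ± 7.01 in KO 30 °C and 21.8 ± 5.5 in WT 30 °C. It passed in no comparison, with log2 fold changes of -0.08 to 0.36, and its groups overlapped in each.

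Of the alpha receptors, Adra1a and Adra1d were the abundant members and moved oppositely with temperature in KO. Both encode alpha1 receptors, which signal through phospholipase C and calcium. Adra1a read 121, 114, 121 and 123 CPM in KO 22 °C, 99.2, 84.8, 103 and 80.8 in WT 22 °C, 67.8, 88.9, 70.5 and 74.8 in KO 30 °C and 94.8, 71.2, 66.2 and 74.1 in WT 30 °C. The KO 22 °C libraries were above all 12 others. Adra1a rose in KO at 22 °C against 30 °C by 0.67 (SE 0.116, adjusted p = 0.000796), which held in all 27 alternatives, and it was 1.3-fold higher in KO than in WT at 22 °C (log2 fold change 0.38, SE 0.115, adjusted p = 0.0326). That genotype call held in 12 of 27 alternatives and was lost without any 1 KO 22 °C library, WT 22 °C replicate 2 or 4, WT 30 °C replicate 2 or 4, or KO 30 °C replicate 4, at adjusted p up to 0.0905. In WT the temperature change was 0.26 (adjusted p = 0.0835).

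Adra1d read 14.6, 17.6, 16.4 and 9.98 CPM in KO 22 °C, 20.6, 13.9, 22.4 and 22.6 in WT 22 °C, 27.7, 25, 27.4 and 39 in KO 30 °C and 30.3, 34, 35.2 and 34.7 in WT 30 °C. In both genotypes every library at 22 °C lay below every library at 30 °C. The gene fell at 22 °C by 1.03 in KO (2.04-fold lower, SE 0.184, adjusted p = 0.00101) and by 0.75 in WT (1.68-fold lower, SE 0.181, adjusted p = 0.00419), in all 27 alternatives each. Exons of Adra1d overlap those of Gm14285 on the other strand over 147 bases. Per kilobase of exon, Adra1a made up 63.4% ± 5.94 of alpha receptor transcripts in KO 22 °C, 49.7% ± 5.2 in WT 22 °C, 35.2% ± 5.53 in KO 30 °C and 32.7% ± 4.97 in WT 30 °C. The alpha2 receptors, which act through the inhibitory G protein, were near the detection limit, with means of at most 0.716 CPM for Adra2b and Adra2c, which passed in no comparison. Adra2a had 37 counts in all and was not tested.

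**Figure D2:**
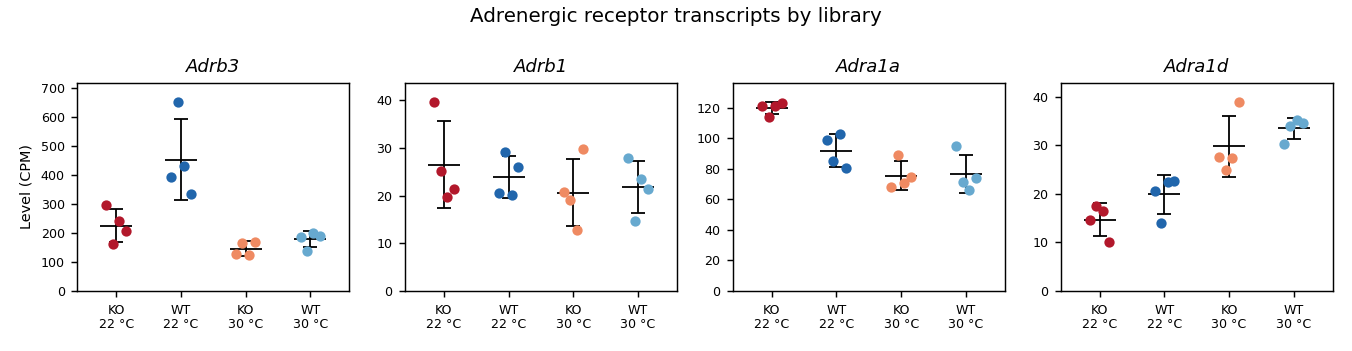
Levels (CPM, linear axis from 0) of 4 adrenergic receptor transcripts in each of the 16 libraries, with points for libraries and bars for the mean ± SD (n = 4). Adrb3 in KO 22 °C lies between 160 and 296 CPM, below the 334 to 652 CPM of WT 22 °C, and Adra1d is lower at 22 °C than at 30 °C in both genotypes.

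The cyclase gene with the largest called change was Adcy10, which encodes the soluble, bicarbonate-activated adenylyl cyclase. Adcy10 (ENSMUSG00000026567, chromosome 1, 165485183 to 165576774, plus strand) read 1.36, 1.29, 1 and 1.19 CPM in KO 22 °C, and 10.6, 8.58, 5.94 and 5.98 CPM in WT 22 °C. At 30 °C it read 0.212, 0.239, 0.151 and 0.163 CPM in KO and 0.297, 0.344, 0.518 and 0.242 CPM in WT. The 4 groups were ordered WT 22 °C, KO 22 °C, WT 30 °C and KO 30 °C, with no overlap between neighbours, although the last 2 lie within a few counts of each other. Adcy10 was 6.41-fold lower in KO than in WT at 22 °C (log2 fold change -2.68, SE 0.239, adjusted p = 4.42e-06). At 22 °C against 30 °C it was 6.1-fold higher in KO (2.61, SE 0.306, adjusted p = 4.5e-05) and 21.7-fold higher in WT (4.44, SE 0.271, adjusted p = 3.54e-08). At 30 °C the genotypes differed by -0.85 (adjusted p = 0.998). The interaction of -1.83 (SE 0.438) missed the threshold at adjusted p = 0.0503 and was called in 7 of 26 alternatives, DESeq2 and limma-voom among them.

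Adcy3, whose cyclase is membrane-bound, was higher in KO than in WT at 22 °C and rose at 22 °C in both genotypes. It read 128, 266, 243 and 302 CPM in KO 22 °C, 183, 119, 97.5 and 127 in WT 22 °C, 54.8, 68.9, 70 and 79.7 in KO 30 °C and 67.8, 65.9, 60.2 and 70.4 in WT 30 °C. KO replicate 1 at 22 °C lay among the WT values, while the other 3 KO libraries were above all WT libraries. The log2 fold change was 0.83 for KO against WT at 22 °C (1.78-fold, SE 0.222, adjusted p = 0.0188), and 1.78 in KO (SE 0.227, adjusted p = 8.84e-05) and 0.99 in WT (SE 0.223, adjusted p = 0.0026) for 22 °C against 30 °C. Both temperature calls held in all 27 alternatives. The genotype call held in 21 of 27, and was lost with only the libraries compared or a term for clock genes. It was also lost without WT 22 °C replicate 2 or 3 or KO 22 °C replicate 2 or 4, at adjusted p up to 0.0681. The interaction was 0.79 (adjusted p = 0.169). Its exons overlap those of Cenpo on the other strand over 1380 bases. Cenpo itself passed in none of the 4 comparisons between groups, with log2 fold changes of -0.09 to 0.38.

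Adcy6, a calcium-inhibited cyclase, was the most abundant cyclase per kilobase in every group and passed in no comparison. It averaged 408 ± 68.9 CPM in KO 22 °C, 337 ± 55.3 in WT 22 °C, 370 ± 19.5 in KO 30 °C and 367 ± 16.4 in WT 30 °C, and its change in KO at 22 °C was 0.28 (SE 0.121, adjusted p = 0.118). Exons of Adcy6 overlap those of Gm29331 on the other strand over 605 bases. Per kilobase, Adcy6 held 52% ± 3.36 of cyclase transcripts in KO 22 °C, 58% ± 0.752 in WT 22 °C, 66% ± 3.69 in KO 30 °C and 65.1% ± 2.45 in WT 30 °C. Adcy3 came next, with 31.9% ± 6.69 in KO 22 °C, 24.4% ± 3.86 in WT 22 °C, 13.3% ± 2.12 in KO 30 °C and 12.7% ± 0.701 in WT 30 °C. The summed cyclase level was 116 ± 17.6 CPM per kilobase in KO 22 °C, 85.6 ± 13.3 in WT 22 °C, 82.7 ± 5.65 in KO 30 °C and 83.1 ± 2.91 in WT 30 °C.

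The other cyclases called were Adcy4, Adcy2, Adcy7 and Adcy1. Adcy4 averaged 44.2 ± 9.58 CPM in KO 22 °C, 30.8 ± 5.64 in WT 22 °C, 37 ± 5.96 in KO 30 °C and 36.4 ± 3.35 in WT 30 °C. It was higher in KO at 22 °C (0.52, SE 0.159, adjusted p = 0.0351), with overlapping groups, a call that held in 17 of 27 alternatives. The call was lost without any 1 of 7 libraries (KO 22 °C replicate 1, 2 or 3, WT 22 °C replicate 2 or 3, WT 30 °C replicate 3 or 4), with adjusted p up to 0.121 and a log2 fold change of 0.35 without KO 22 °C replicate 1. Adcy2 read 4.83, 0.245, 0.267 and 0.772 CPM in KO 22 °C and 0 to 0.188 CPM in WT 22 °C, with KO replicate 1 far above the rest. It was called at adjusted p = 0.041, with no fold given for counts this low. The call held in 13 of 24 alternatives. It was lost without any 1 of 8 libraries (KO 22 °C replicate 1, any WT 22 °C library, KO 30 °C replicate 1, WT 30 °C replicate 1 or 4), and without KO 22 °C replicate 1 the adjusted p was 0.232. Adcy7, a cyclase of blood and immune cells, fell in WT at 22 °C by 0.77 (SE 0.227, adjusted p = 0.0144), to 5.08 ± 1.44 CPM in WT 22 °C against 8.67 ± 1.85 CPM in WT 30 °C, and changed by -0.47 in KO (adjusted p = 0.137). The WT call was lost with limma-voom and without the 4 muscle-rich libraries. Beside it, 3 of 5 macrophage markers fell at 22 °C in each genotype, with summed levels of 35.5 to 48.5 CPM in KO 22 °C, 35.5 to 58.3 in WT 22 °C, 62.4 to 68.6 in KO 30 °C and 55.8 to 68.6 in WT 30 °C. None of those markers was at 0, and their part in the Adcy7 change was not tested. Adcy1, a calmodulin-activated cyclase, was higher in KO at 22 °C than at 30 °C (1.79, SE 0.6, adjusted p = 0.0376), at 1.23 ± 0.541 CPM in KO 22 °C against 0.364 ± 0.3 CPM in KO 30 °C. That call held in 16 of 26 alternatives. It was lost without any 1 of 7 libraries (KO 22 °C replicate 1, 3 or 4, KO 30 °C replicate 1, 2 or 4, WT 30 °C replicate 4), with adjusted p up to 0.104. Adcy5 and Adcy9 passed in no comparison.

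**Figure D3:**
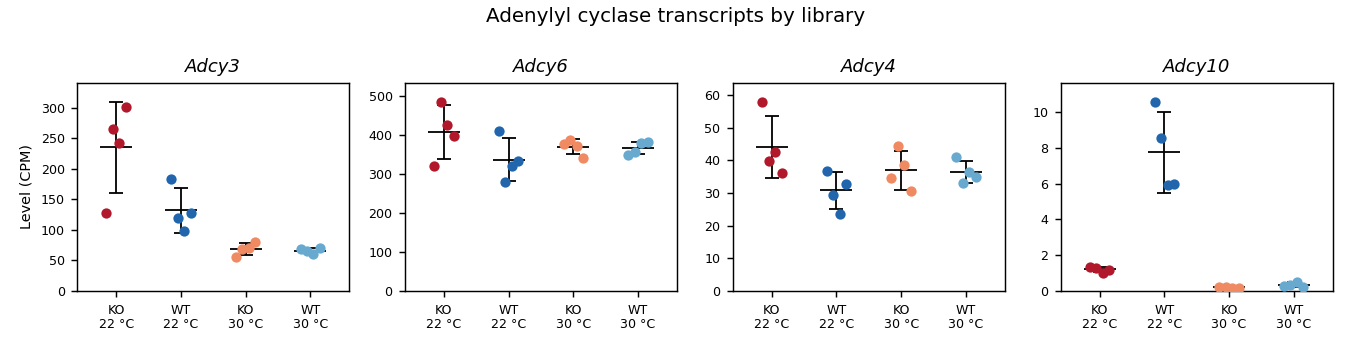
Levels (CPM, linear axis from 0) of 4 adenylyl cyclase transcripts in the 16 libraries, with points for libraries and bars for the mean ± SD (n = 4). Adcy10 is at 5.94 to 10.6 CPM in WT 22 °C and at most 1.36 CPM in every other library, and the Adcy6 groups overlap.

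Among the phosphodiesterases, 3 genes of the PDE4 family, whose enzymes degrade cyclic AMP, were higher in KO than in WT at 22 °C, and Pde4d also rose at 22 °C in both genotypes. Of 20 tested genes with a Pde name, 6 were called in KO against WT at 22 °C, 5 higher (Pde10a, Pde4a, Pde4b, Pde4d, Pde5a) and Pde6d lower. These calls made up 30.0%, beside 17.6% of all tested genes. At 22 °C against 30 °C 6 rose in KO and none fell, while in WT 3 rose and 2 fell. The temperature calls made up 30.0% in KO and 25.0% in WT, beside 26.7% and 38.3% of all tested genes. Pde4d (ENSMUSG00000021699, chromosome 13, 108449948 to 109953461, plus strand) read 222, 215, 177 and 229 CPM in KO 22 °C and 163, 122, 137 and 158 CPM in WT 22 °C. At 30 °C it read 63, 78.4, 83.7 and 55 CPM in KO and 65.7, 66.3, 64 and 60.8 CPM in WT. Both 22 °C groups lay above all 30 °C libraries, and KO 22 °C lay above WT 22 °C without overlap. Pde4d rose at 22 °C by 1.59 in KO (3.01-fold, SE 0.131, adjusted p = 3.54e-06) and by 1.18 in WT (2.26-fold, SE 0.13, adjusted p = 7.73e-06), in all 27 alternatives. In KO against WT at 22 °C it was 0.54 higher (1.45-fold, SE 0.128, adjusted p = 0.0104), in 26 of 27. The interaction was 0.42 (adjusted p = 0.204).

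Pde4a and Pde4b, 2 further PDE4 genes, were also higher in KO at 22 °C. Pde4a read 115, 177, 143 and 144 CPM in KO 22 °C, 110, 98.4, 104 and 101 in WT 22 °C, 106, 106, 100 and 83.2 in KO 30 °C and 78.1, 86.1, 107 and 93.7 in WT 30 °C. The KO 22 °C libraries were above all others. It rose in KO at 22 °C by 0.55 (SE 0.123, adjusted p = 0.0046, in all 27 alternatives) and changed by 0.18 in WT (adjusted p = 0.265). Pde4a was 0.48 higher in KO than in WT at 22 °C (SE 0.123, adjusted p = 0.0152). That call held in 24 of 27 alternatives, and was lost without KO 22 °C replicate 2 at 0.35 (adjusted p = 0.0702). Pde4b read 72.4, 13.5, 12.8 and 15.1 CPM in KO 22 °C, 4.24, 9.03, 10.3 and 10.5 in WT 22 °C, 13.8, 18.2, 20.2 and 20 in KO 30 °C and 14.3, 20.6, 14.3 and 19.2 in WT 30 °C. KO replicate 1 at 22 °C, which also held the most skeletal muscle counts, stood far above the rest. With it Pde4b was 1.74 higher in KO (SE 0.484, adjusted p = 0.0228), and without it 0.70 (adjusted p = 0.0657). Without WT 22 °C replicate 1 the adjusted p was 0.0569. The genotype call held in 19 of 27 alternatives. It was also lost with DESeq2, limma-voom, only the libraries compared, a replicate block or a term for clock genes, and without the muscle-rich libraries. Every WT library at 22 °C was below every WT library at 30 °C (-1.01, adjusted p = 0.109), a difference called at adjusted p = 0.00216 when KO 22 °C replicate 1 was left out of the common fit. In KO the temperature change was 0.65 with that library (adjusted p = 0.317) and -0.39 without it (adjusted p = 0.236). Pde4c, the fourth family member, passed in no comparison.

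Pde3b, the cyclic GMP-inhibited enzyme named above, held the largest share of phosphodiesterase transcripts per kilobase in each group. It read 329, 374, 388 and 395 CPM in KO 22 °C, 523, 236, 362 and 325 in WT 22 °C, 245, 285, 271 and 257 in KO 30 °C and 277, 291, 291 and 308 in WT 30 °C. The WT 22 °C libraries spanned a wider range than the other 3 groups together. Pde3b did not differ past the threshold between genotypes at 22 °C (0.04, SE 0.163, adjusted p = 0.888) or at 30 °C (-0.14, adjusted p = 0.998). It rose in KO at 22 °C by 0.49 (1.4-fold, SE 0.164, adjusted p = 0.0374), a call kept in 13 of 27 alternatives. It was lost without any 1 of 10 libraries (KO 22 °C replicate 2, 3 or 4, KO 30 °C replicate 1, 3 or 4, any WT 30 °C library), with adjusted p up to 0.0961. In WT the change was 0.31 (adjusted p = 0.151). Per kilobase Pde3b held 34.9% ± 1.56 in KO 22 °C, 39% ± 5.91 in WT 22 °C, 36.9% ± 0.951 in KO 30 °C and 39.4% ± 1.12 in WT 30 °C. Pde4d held 15.1% ± 1.85 in KO 22 °C, 12.2% ± 1.14 in WT 22 °C, 7.38% ± 1.15 in KO 30 °C and 6.59% ± 0.576 in WT 30 °C.

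Pde7b and Pde8a encode cyclic AMP-specific enzymes of other families. Pde7b read 17.9, 27.9, 31.7 and 32.2 CPM in KO 22 °C, 51.9, 19, 17.6 and 16.1 in WT 22 °C, 6.57, 9.03, 8.3 and 7.63 in KO 30 °C and 6.77, 11.3, 8.64 and 9.25 in WT 30 °C. All 22 °C libraries were above all 30 °C libraries. Pde7b rose at 22 °C by 1.80 in KO (3.48-fold, SE 0.331, adjusted p = 0.00119) and by 1.54 in WT (2.91-fold, SE 0.326, adjusted p = 0.00168), and in WT by 0.95 (adjusted p = 0.00206) without replicate 1 at 22 °C. Between genotypes at 22 °C it differed by 0.07 (adjusted p = 0.903), and by 0.65 (adjusted p = 0.0378) without that WT library. Pde8a rose in KO at 22 °C by 0.45 (SE 0.107, adjusted p = 0.00634), to 86.8 ± 12.1 CPM in KO 22 °C against 63.6 ± 5.57 CPM in KO 30 °C, and in WT it changed by 0.22 (adjusted p = 0.109). The KO call held in 26 of 27 alternatives.

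Pde10a, whose enzyme degrades both cyclic nucleotides, had the smallest adjusted p between genotypes at 22 °C among the phosphodiesterases. It read 8.17, 7.28, 8.49 and 9.2 CPM in KO 22 °C, 4.04, 1.9, 3.56 and 5.46 in WT 22 °C, 5.72, 7.95, 5.51 and 6.16 in KO 30 °C and 5.88, 7.22, 7.31 and 6.29 in WT 30 °C. The WT 22 °C libraries were below all 12 others. Pde10a was 2.2-fold higher in KO at 22 °C (1.14, SE 0.227, adjusted p = 0.00385). It fell in WT at 22 °C by 0.83 (SE 0.227, adjusted p = 0.00948), in all 27 alternatives, and its change in KO was 0.39 (adjusted p = 0.213). The interaction of 1.21 (SE 0.317) missed the threshold at adjusted p = 0.0502 and was called in 7 of 26 alternatives.

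The remaining Pde genes called were Pde1c, Pde5a, Pde1b and Pde6d. Pde1c, a calmodulin-dependent phosphodiesterase, was called higher at 22 °C in KO (adjusted p = 0.00991) and WT (adjusted p = 0.00153), with means of 0.743 ± 0.331 CPM in KO 22 °C, 1.08 ± 0.797 in WT 22 °C, 0.0857 ± 0.0991 in KO 30 °C and 0.102 ± 0.0535 in WT 30 °C. At 30 °C it was at 0 in 2 KO libraries, so no fold is given. Pde5a, a cyclic GMP-specific enzyme of smooth muscle, was higher in KO at 22 °C (0.63, SE 0.21, adjusted p = 0.0488), a call kept in 9 of 27 alternatives and lost without any 1 library other than KO 22 °C replicate 1 or WT 22 °C replicate 3 or 4. Pde1b, of the same calmodulin-dependent family, fell in WT at 22 °C by 0.42 (SE 0.159, adjusted p = 0.048), kept in 10 of 27 and lost without any 1 library other than KO 22 °C replicate 1, WT 22 °C replicate 2 or KO 30 °C replicate 2 or 4. Pde6d fell in KO against WT at 22 °C by 0.42 (SE 0.12, adjusted p = 0.025), to 14.5 ± 0.711 CPM in KO 22 °C against 19.5 ± 3.94 CPM in WT 22 °C. The Pde6d call held in 20 of 27 alternatives. Pde6d missed the threshold with limma-voom, only the libraries compared or a term for clock genes, and without the muscle-rich libraries. It also did so without KO 22 °C replicate 1 (adjusted p = 0.0536), KO 22 °C replicate 3 (0.0612) or WT 22 °C replicate 2 (0.0573). Its product is a carrier of prenylated proteins and no phosphodiesterase. Pde12 and Pde4dip, caught by name, likewise encode an RNA-degrading enzyme of mitochondria and a scaffold protein, and neither passed in a comparison. Pde1a, Pde3a, Pde6g, Pde7a, Pde8b and Pde9a were tested and called in none.

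**Figure D4:**
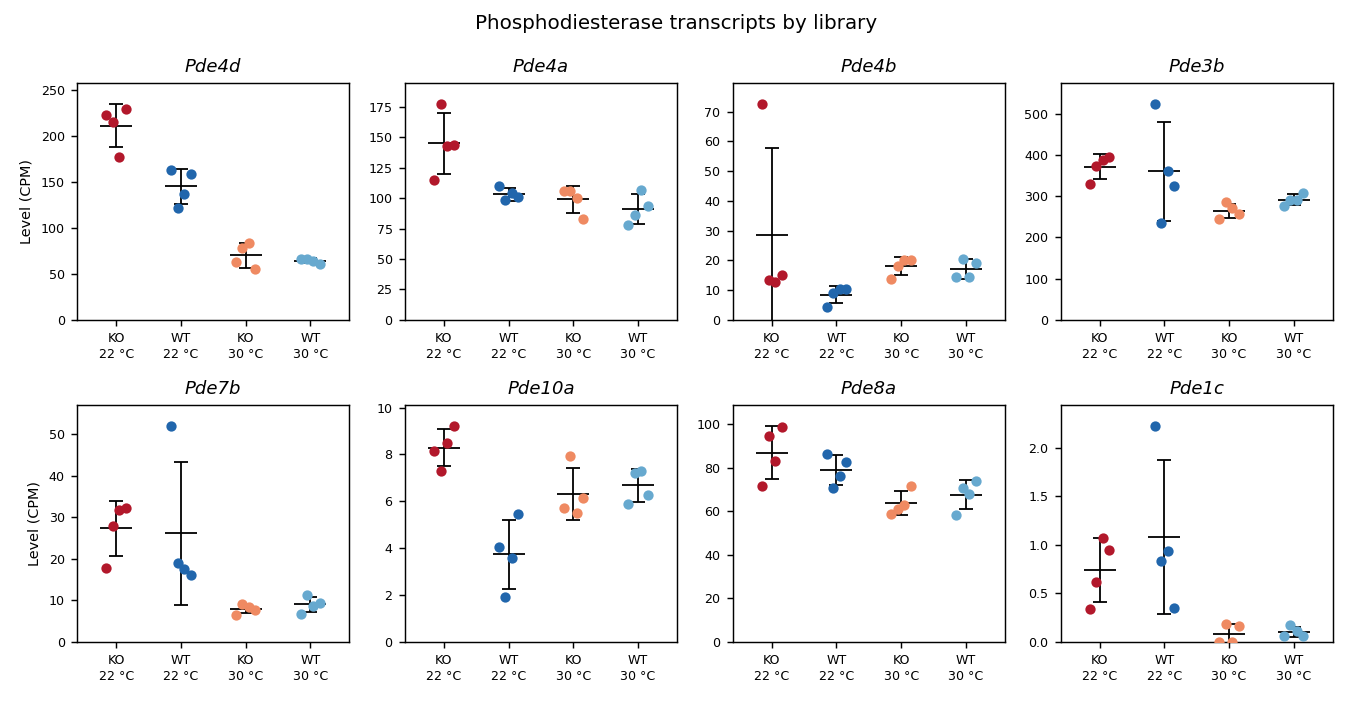
Levels (CPM, linear axis from 0) of 8 phosphodiesterase transcripts in the 16 libraries, with points for libraries and bars for the mean ± SD (n = 4). Pde4d is at 122 to 229 CPM at 22 °C and at most 83.7 CPM at 30 °C, and a single KO 22 °C library reaches 72.4 CPM for Pde4b.

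Among the protein kinase A subunits, the catalytic gene Prkaca was the 1 member called between genotypes. It read 294, 370, 360 and 388 CPM in KO 22 °C, 433, 457, 432 and 399 in WT 22 °C, 350, 332, 376 and 358 in KO 30 °C and 352, 350, 365 and 353 in WT 30 °C. WT 22 °C was above the 3 other groups, which overlapped. Prkaca was 1.22-fold lower in KO at 22 °C (-0.28, SE 0.081, adjusted p = 0.0251), and rose in WT at 22 °C by 0.28 (SE 0.08, adjusted p = 0.0134), which upper-quartile factors took to 0.18 (adjusted p = 0.135). The genotype call held in 20 of 27 alternatives and was lost without KO 22 °C replicate 1 (-0.22, adjusted p = 0.0585) or WT 22 °C replicate 2 (-0.26, adjusted p = 0.0514). It was also lost with no filter, limma-voom, only the libraries compared or a term for clock genes, and without the muscle-rich libraries. The interaction was -0.28 (adjusted p = 0.175). Prkacb, the second catalytic gene, had means of 68.3 to 76.7 CPM and passed in no comparison. Per kilobase, Prkaca held 94.6% ± 0.529 of catalytic transcripts in KO 22 °C, 95.7% ± 0.68 in WT 22 °C, 94.3% ± 0.321 in KO 30 °C and 94.2% ± 0.324 in WT 30 °C.

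Prkar2b, the regulatory subunit RIIbeta that is typical of fat and brain, had the highest level per kilobase of the 50 genes and rose at 22 °C in both genotypes. It read 1068, 1520, 1686 and 1645 CPM in KO 22 °C, 1602, 1240, 1517 and 1437 in WT 22 °C, 1143, 1148, 1186 and 1107 in KO 30 °C and 1067, 1134, 1194 and 1094 in WT 30 °C. KO replicate 1 at 22 °C lay below all KO 30 °C libraries and the other 3 above them. The log2 fold change was 0.37 in KO (SE 0.117, adjusted p = 0.0298) and 0.37 in WT (SE 0.117, adjusted p = 0.0213), with an interaction of 0.00 (SE 0.166). The KO call held in 14 of 27 alternatives and the WT call in 22. The KO call was lost without any 1 of 10 libraries (KO 22 °C replicate 2, 3 or 4, any KO 30 °C library, WT 30 °C replicate 1, 2 or 4), with adjusted p up to 0.114. The WT call was lost without WT 30 °C replicate 1 or 4 or WT 22 °C replicate 1, at adjusted p up to 0.0718. Both were lost with upper-quartile factors, at 0.28 in KO and 0.27 in WT. Prkar1a, the regulatory subunit with the full element in a window above, averaged 304 ± 23.9 CPM in KO 22 °C, 275 ± 33.5 in WT 22 °C, 277 ± 13.5 in KO 30 °C and 260 ± 7.76 in WT 30 °C, and passed in no comparison. Prkar1b fell in WT at 22 °C by 1.05 (SE 0.287, adjusted p = 0.00919), to 1.64 ± 0.629 CPM in WT 22 °C against 3.44 ± 0.302 CPM in WT 30 °C, and in KO it changed by -0.66 (adjusted p = 0.0922). Prkar2a passed in none. Prkar2b held 81.9% to 85.4% of regulatory transcripts per kilobase in the 4 group means.

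**Figure D5:**
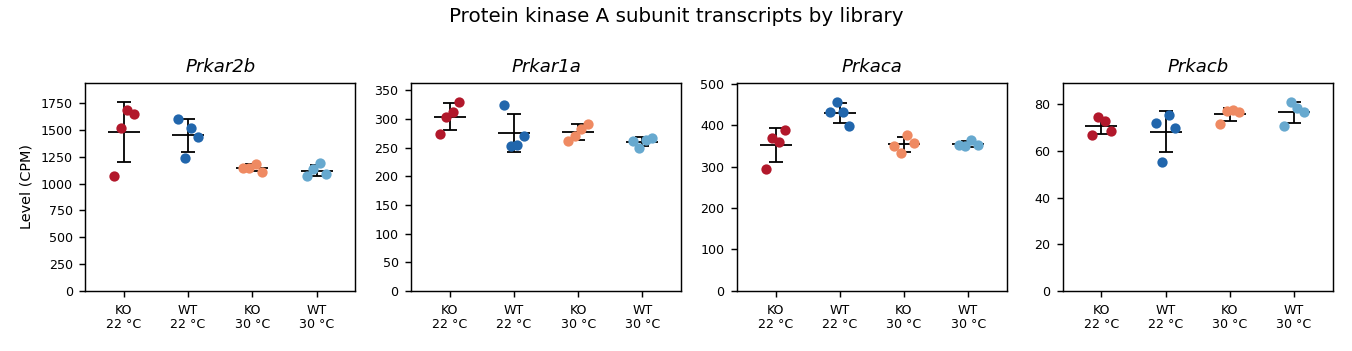
Levels (CPM, linear axis from 0) of 4 protein kinase A subunit transcripts in the 16 libraries, with points for libraries and bars for the mean ± SD (n = 4). Prkaca in WT 22 °C lies at 399 to 457 CPM, above every other library, and Prkacb and Prkar1a overlap across the groups.

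Of the 14 members called in KO and 13 called in WT at 22 °C against 30 °C, 8 were called in both, 57.1% of the KO and 61.5% of the WT calls. Over all tested genes 26.7% were called in KO and 38.3% in WT. The overlap of those calls was not counted, so nothing particular to the members is read from these shares. Adcy10, Adcy3, Adrb3, Pde1c, Pde4d, Pde7b and Prkar2b rose in both genotypes and Adra1d fell in both. With any 1 library left out, 9 of the KO calls and 11 of the WT calls were kept. Over all genes 19.1% to 32.5% were called in KO and 31.6% to 41.5% in WT across those fits. How many of the all-gene calls were kept in every fit was not counted. Adcy1, Adra1a, Pde3b, Pde4a and Pde8a were called in KO and missed the threshold in WT, and Adcy7, Pde10a, Pde1b, Prkaca and Prkar1b the reverse. For none of these did the interaction pass the test.

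Other measures moved with the genotype at 22 °C and stand beside its 13 calls. All 5 vascular smooth muscle markers were higher in KO, with summed levels of 184 to 218 CPM in KO 22 °C, 113 to 141 in WT 22 °C, 145 to 192 in KO 30 °C and 119 to 173 in WT 30 °C. Of 5 endothelial markers 4 were higher, with sums of 724 to 926 CPM in KO 22 °C, 595 to 791 in WT 22 °C, 997 to 1104 in KO 30 °C and 949 to 1045 in WT 30 °C. None of these markers was at 0, and their part in the changes of Adcy4 and Pde5a was not tested. Of 10 skeletal muscle markers none was called, at 3.61 to 5830 CPM summed in KO 22 °C and 5.31 to 248 CPM in WT 22 °C. Without the 4 libraries rich in them 7 of the 13 members stayed called. Over all genes 9.95% were called in that setting, beside 17.6% with all libraries. The members kept were Adrb3 at -1.18, Adcy10 at -2.75, Adcy3 at 1.03, Pde4d at 0.51, Pde4a at 0.57, Pde10a at 1.13 and Pde5a at 0.79. Sympathetic neuron markers summed to at most 2 CPM in any library, with Dbh at 0 in all 16 and Th at 0 in both WT groups. Of 5 white adipocyte markers 1 was higher and 1 lower in KO at 22 °C, with sums of 147 to 264 CPM in KO 22 °C and 89.3 to 257 CPM in WT 22 °C. Retina markers, which share the Pde6 genes' tissue, summed to at most 2.02 CPM in any library. The difference in log2 CPM between Dbp and Arntl (Dbp minus Arntl), clock genes that peak at opposite times of day, was -3.28 to -2.12 in KO 22 °C, -0.78 to 1.74 in WT 22 °C, -1.33 to 0.26 in KO 30 °C and -0.55 to 0.40 in WT 30 °C. With that difference as a term, none of the 13 was called and 0.773% of all genes were, with Adrb3 at -0.81 (adjusted p = 0.602), Adcy10 at -2.12 (0.0744), Adcy3 at 0.97 (0.51) and Pde4d at 0.28 (0.783). The genotypes did not overlap in it at 22 °C, so clock state and genotype cannot be told apart there. The time of tissue collection is not given in the sources used here.

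The genes around the members were counted in lists by role. The counts are to be read beside the shares of all tested genes. Those were 7.52% higher and 10.1% lower between genotypes at 22 °C. With temperature 13.8% of all genes rose and 13.0% fell in KO, and 20.5% rose and 17.8% fell in WT. Whether a list departed from these shares was not tested. Alternatives were read gene by gene for the members only, so the calls in these lists come from the main fit alone. Over all genes, the clock difference as a term took the 2482 calls between genotypes at 22 °C to 109. It took the 443 of the interaction to 30. Of 13 G protein subunits, Gnas, the stimulatory alpha subunit that couples beta receptors to cyclases, was higher in KO than in WT at 22 °C (0.47, SE 0.112, adjusted p = 0.0107), at 492 ± 69.9 CPM in KO 22 °C, 355 ± 47.7 in WT 22 °C, 290 ± 28.7 in KO 30 °C and 271 ± 10.7 in WT 30 °C. It rose at 22 °C by 0.76 in KO and by 0.39 in WT. Gnai2, an inhibitory alpha subunit, fell at 22 °C by 0.54 in KO and by 0.49 in WT. In that list 1 gene was higher and 1 lower between genotypes at 22 °C, 1 rose and 2 fell with temperature in KO, and 4 rose and 2 fell in WT. Of 12 desensitisation and RGS genes 2 were higher and 2 lower in KO at 22 °C, among them Grk5, a receptor kinase, at 22.8 ± 1.52 CPM in KO 22 °C against 40.2 ± 1.46 CPM in WT 22 °C (-0.81, SE 0.076, adjusted p = 6.37e-06). At 22 °C against 30 °C 3 rose and 1 fell in KO and 3 rose and 2 fell in WT, with Rgs7 at 0.90 in KO and 1.04 in WT.

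Of 14 tested receptors of fat that couple to the same G proteins, 2 were lower in KO at 22 °C, both of the inhibitory kind. Adora1, the adenosine A1 receptor gene, was at 68.4 ± 5.64 CPM in KO 22 °C against 125 ± 15 CPM in WT 22 °C (-0.87, SE 0.101, adjusted p = 5.58e-05). Ptger3, a prostaglandin E2 receptor gene, was at 31.4 ± 9.68 CPM in KO 22 °C, 98.4 ± 8.9 in WT 22 °C, 16.9 ± 6.64 in KO 30 °C and 23.4 ± 3.62 in WT 30 °C (-1.65, SE 0.26, adjusted p = 0.000817 at 22 °C). With temperature 1 rose and 2 fell in KO and 2 rose and 2 fell in WT. In that list the median log2 fold change of KO against WT at 22 °C was -0.18.

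Downstream of cyclic AMP, 7 of 13 genes of the CREB and CRTC list were higher in KO at 22 °C and none lower. Over all tested genes 7.52% were higher and 10.1% lower. The list's higher genes included Crem, a cyclic AMP-induced factor (0.84, SE 0.151, adjusted p = 0.00205), and Sik1, a salt-inducible kinase (1.75, SE 0.409, adjusted p = 0.00964). The list's median was 0.41, beside 0.02 over all tested genes. With temperature 6 rose and none fell in KO, and 1 rose and 2 fell in WT. Of 14 tested genes typical of the cyclic AMP response in brown fat, 5 were higher in KO at 22 °C and none lower, with a median of 0.94. Nr4a3, a nuclear receptor gene, was at 65.5 ± 16.3 CPM in KO 22 °C against 9.31 ± 4.65 CPM in WT 22 °C (2.80, SE 0.506, adjusted p = 0.00205), and Ppargc1a, a coactivator of mitochondrial genes, at 180 ± 68.4 CPM in KO 22 °C against 80.8 ± 17.5 CPM in WT 22 °C (1.16, SE 0.226, adjusted p = 0.00348). With temperature 6 rose in KO and 7 in WT, and none fell. Over all tested genes 13.8% rose in KO and 20.5% in WT. Ucp1 did not differ past the threshold between genotypes at 22 °C (0.21, adjusted p = 0.565).

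Of 7 genes of lipolysis, whose products include substrates of protein kinase A, none was higher and 2 were lower in KO at 22 °C. Lipe, the hormone-sensitive lipase gene, was at 1222 ± 65.1 CPM in KO 22 °C, 1809 ± 217 in WT 22 °C, 1228 ± 106 in KO 30 °C and 1258 ± 54.1 in WT 30 °C (-0.57, SE 0.087, adjusted p = 0.00062 at 22 °C). Plin1, which coats the lipid droplet, changed by -0.28 (adjusted p = 0.0166). With temperature 2 rose in KO and 5 in WT. Over all these lists the interaction called 4 genes, Lipe (-0.53, adjusted p = 0.0318), Grk5 (-0.62, adjusted p = 0.00576), Adora1 (-0.59, adjusted p = 0.0369) and Akap13 (0.60, adjusted p = 0.0293).

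Of 11 tested A-kinase anchoring proteins 4 were higher and 1 lower in KO at 22 °C, with Akap13 at 0.43 (adjusted p = 0.00753) and Akap7 at -0.42 (adjusted p = 0.0225). With temperature 2 rose in KO, and 2 rose and 1 fell in WT. Among 7 tested inhibitors and other effectors of cyclic AMP, Rapgef3 (0.50, adjusted p = 0.00186) and Rapgef4 (0.91, adjusted p = 0.00851), which encode the EPAC exchange factors, were higher in KO at 22 °C. None changed with temperature in KO, and 3 fell in WT. In the cyclic GMP list of 10 tested genes 2 were higher and 1 lower in KO at 22 °C. With temperature none rose and 6 fell in each genotype, among them Gucy1b1, a subunit of soluble guanylyl cyclase, by 1.03 in KO (adjusted p = 0.000798) and by 1.19 in WT (adjusted p = 0.000117). Beside it, endothelial markers fell at 22 °C for 2 of 5 in KO and 3 of 5 in WT, and macrophage markers for 3 of 5 in each, with the summed levels given above. None of these markers was at 0, and their part in the fall of the cyclic GMP genes was not tested. In KO against WT at 30 °C no gene of these lists was called.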

How the data were processed

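RNA-seq counts came from 16 libraries of mouse interscapular brown fat, 4 per group, grouped by their titles. The authors deposited 1 table of whole-number read counts by Ensembl gene identifier, unscaled to judge by its values. The submitters' processing notes name the aligner STAR 2.4.2a, FastQC 0.10.1 and edgeR 3.14.0, and list GRCm38 and mm10 as builds without roles. Which program and gene models produced the counts, and whether strand was used, is not given in the sources used here. Symbols from a reference table matched 37607 of 38924 identifiers, and those unmatched held at most 0.131% of a library's counts. Coordinates and exon lengths are from GENCODE M21 on GRCm38.

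Counts were fitted in R 4.3.3 with edgeR 4.0.16, as 1 quasi-likelihood model over all 16 libraries with a term per group, TMM factors and filterByExpr at a minimum count of 10. Of 24818 genes with a count, 14103 were tested, and p-values were Benjamini-Hochberg adjusted over all of them. Each SE was obtained from the fold change and the F statistic, as |log2 fold change|/√F. CPM were computed with TMM library sizes, and shares within a family from CPM per kilobase of exon. The typical biological coefficient of variation was 22.5%. Replicates within a group differed by more than sampling noise. Alternatives were other scaling factors, filters and tools (DESeq2 1.42.0, limma-voom 3.58.1), only the groups compared, a replicate block, a muscle or clock term, libraries rich in muscle left out, and each library left out.

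The members, lists and tests were chosen with earlier results of these data known. The rule for names always named Adrb1, Adrb3, Adra1a, Adra2a, Adcy3, Adcy6, Pde3b, Pde4b, Pde4d, Prkaca, Prkacb, Prkar1a and Prkar2b, then members called in any comparison, and up to 4 called genes of smallest p per list. The values of 1 member are not reported here, though it is included in the counts. A few further genes were named for context after their values were seen.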

Additional observations from a re-analysis of the deposited data

Results flagged for a closer look

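Within each group of 4 libraries, the gap of the highest or lowest library to its nearest neighbour was divided by the group's range and compared with Dixon's 95% critical value for 4 values. Over 168 checks (42 genes in 4 groups) 8 passed, a number near the 1 in 20 that chance gives. They were not spread evenly over the libraries, since most of them fell on KO 22 °C replicate 1. KO 22 °C replicate 1 was the high library for Pde4b (0.962), Pde4dip (0.895), Adcy2 (0.885) and Prkar2a (0.848), and the low one for Adra2c (0.907). For Pde4dip it read 242 CPM, against 62.2 to 81.1 CPM in the other 3. That library had 0.555% of its counts on skeletal muscle markers, and the part of muscle in these values was not tested. WT 22 °C replicate 1 was high for Pde7b (0.919), at 51.9 CPM against 16.1 to 19 CPM in the others. KO 30 °C replicate 1 was low for Prkacb (0.874), at 71.6 CPM against 76.9 to 77.6 CPM, and WT 30 °C replicate 1 was low for Prkar2a (0.874), at 24.9 CPM against 26.6 to 26.8 CPM.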

How the results depend on the processing

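No called value changed direction under any setting. The 13 members called in KO against WT at 22 °C became 4 with only the 8 libraries compared, 7 without the muscle-rich libraries and 0 with the clock term, and 7 to 14 with 1 library left out (7 without WT 22 °C replicate 2, 8 without KO 22 °C replicate 1 and 8 without KO 22 °C replicate 2). For 22 °C against 30 °C in KO the 14 became 22 with limma-voom and 8 with the clock term, and 9 to 15 with 1 library left out (9 without WT 30 °C replicate 4, KO 30 °C replicate 1 or 4, or KO 22 °C replicate 3 or 4). In WT the 13 became 11 to 16 over every alternative. The interaction, at 0, gave 2 with relative-log-expression factors, 2 with the stricter filter, 2 with DESeq2, 3 with limma-voom and 0 to 2 with 1 library left out (2 without WT 22 °C replicate 4, and 1 each without WT 22 °C replicate 2 or 3, WT 30 °C replicate 3, KO 30 °C replicate 2 or KO 22 °C replicate 1). Over all genes the interaction called 3.16% with relative-log-expression factors and 3.77% with the stricter filter, beside 3.14% in the main fit. KO against WT at 30 °C stayed at 0 in all. The causes of these moves were not tested. Upper-quartile factors moved the median of all genes in WT at 22 °C against 30 °C to -0.13, from which changes there are to be read, and turned the split of all calls to 2196 higher and 3382 lower (2897 and 2509 with TMM). In KO it was 1179 higher and 2540 lower (1943 and 1829 with TMM). Over all genes, the 2482 calls in KO against WT at 22 °C became 634 with only the libraries compared, 1432 without the muscle-rich libraries and 109 with the clock term. At 30 °C the 6 became 22 with DESeq2, 44 with limma-voom, 1 without the muscle-rich libraries and 2 without WT 30 °C replicate 2. The 3772 for temperature in KO became 6067 with limma-voom, 2115 without the muscle-rich libraries and 2254 with the clock term. The 443 of the interaction became 1076 with DESeq2, 1050 with limma-voom, 236 with no filter, 96 without the muscle-rich libraries, 30 with the clock term, 186 with the replicate block and 147 to 1085 with 1 library left out. The interaction needs all 4 groups, so it has no value with only the groups compared. For same-numbered libraries of different groups, the correlation of deviations from the group mean ran from r = -0.503 to 0.519, with a median of 0.169. It was over 0.1 in 13 of 24 pairs, and libraries matched best with their own number in 17 of 48 checks. These values do not settle whether the numbers pair the samples, which the labels do not state. With the replicate block 10 members were called in KO against WT at 22 °C, 11 in KO and 13 in WT for temperature, and 0 in the other comparisons. Over all genes the block called 14.8%, 24.2% and 36.7% in those 3, beside 17.6%, 26.7% and 38.3% in the main fit. Low counts limit Adcy1, Adcy2, Pde1c, Adra2b and Adra2c.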
